A study of Mus musculus with 7 samples.

Results

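The SNARE proteins and the vesicle exocytosis machinery that acts with them were examined in sorted mouse pancreatic alpha cells from control mice and from mice in which Nkx2-2 was deleted in glucagon-producing cells. The genes were chosen by symbol: the synaptotagmins (Syt), syntaxins (Stx), syntaxin-binding proteins (Stxbp), VAMPs, complexins (Cplx), RIM proteins (Rims), the SNAP genes Snap23, Snap25, Snap29 and Snap47, Unc13a to Unc13d, Rab3a to Rab3d, Cadps, Cadps2, Rph3al and Doc2b. The rule found 70 genes among the 55536 of the deposited count table, all annotated as protein-coding. Of these, 61 had an adjusted p-value in the comparison of knockout (KO) with control cells. The others had low mean counts, except Stx19, which was set aside as a count outlier.

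The study used mice of the strain given as C57B1/6J and asked how the homeodomain transcription factor NKX2.2 controls transcription in alpha cells of living mice. The 4 control samples had the genotype Nkx2.2+/+;Gcg-iCre;Rosa26:tdTomato, and the 3 KO samples had Nkx2.2fl/fl;Gcg-iCre;Rosa26:tdTomato. All 7 samples therefore carried a Cre recombinase driven by the glucagon gene and the red reporter that Cre switches on, and cells of both groups were sorted from islets by that red fluorescence. The age of the mice and whether each sample was a single animal are not given in the sources used here, so p-values measure the spread between these samples, part of which may be technical.

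Hormone granules are released when SNARE proteins on the granule and on the plasma membrane wind into a bundle and pull the membranes together. The granule contributes a VAMP, and the plasma membrane contributes a syntaxin and a SNAP25-type protein. Syntaxin-binding proteins hold and guide the syntaxin, complexins clamp the partly assembled bundle, and synaptotagmins sense the calcium that enters when the cell fires. Rab3 proteins, RIM, Munc13 (Unc13) and CAPS (Cadps) tether and prime granules beforehand. In alpha cells this machinery releases glucagon when blood glucose falls.

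Nkx2-2 itself had normalized counts (counts divided by DESeq2 size factors) of 8596, 11199, 12297 and 9782 in controls 1 to 4. KO 1 had 7758, KO 2 had 7534, and the last KO library, whose column carries a number that no KO title has, had 7694. It is called the unnumbered KO library, and values of single libraries follow this order throughout. The groups did not overlap, and the log2 fold change was -0.45 with adjusted p-values of 0.0218 (DESeq2) and 0.152 (edgeR). Which exons the deletion removes is not given in the sources used here, so total counts of the gene check the labels only in part. Libraries held from 45483504 to 72456557 counts, of which 0.402% to 0.464% fell on the 70 genes. Of all counts between 1 and 10 in a library, 84.4% to 88.9% were even, so counts were not read as independent reads. Control 4 stood apart from the other libraries. DESeq2 set 1245 genes aside as count outliers, and in 1238 of them control 4 had the largest influence, so results are given with and without it. Alpha cell identity was checked with 8 markers, whose summed normalized counts were 6417122 to 8411910 in controls and 2925132 to 4240504 in KO libraries, with 6 of the 8 lower in DESeq2 and 3 in edgeR. Glucagon (Gcg) alone supplied 6164736 or more in each control and 2837930 or more in each KO library.

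Few exocytosis genes differed between KO and control cells. In DESeq2, 2 of the 61 genes had an adjusted p under 0.05, and both rose in KO cells. They were Stx11, a syntaxin best known from cytotoxic lymphocytes, and Stx1a, a plasma membrane syntaxin of endocrine cells. These are 3.28% of the 61 genes, against a background of 4.51% of the 17571 genes tested (792 genes, 394 higher and 398 lower), or 2.24% for higher genes alone. In the quasi-likelihood test of edgeR, Stx11 alone passed among 64 genes tested (1.56%), against a background of 1.05% of 19310 genes. Without control 4, DESeq2 called Stx11, Stx1a and, as lower, Rab3c, 3 of 61 genes (4.92%), against a background of 5.23%, and edgeR called Stx11 alone of 62 (1.61%), against 1.34%. All 4 shares lay near their background.

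Stx11 (ENSMUSG00000039232, chromosome 10, 12938209 to 12964298, minus strand) and Stx1a (ENSMUSG00000007207, chromosome 5, 135023482 to 135051100, plus strand) are the 2 genes called in DESeq2 with all 7 libraries. The sequence just upstream of each is shown because the deleted factor binds DNA. Each is printed 5′ to 3′ on the strand of its gene, from RefSeq on GRCm38.p6, and ends where the transcript annotated in GENCODE M21 begins. The stretch at Stx11 lies at chr10:12964299-12964509 (minus strand, 211 bases, 68.7% G or C) and that at Stx1a at chr5:135023232-135023481 (plus strand, 250 bases, 62% G or C). Capitals would mark the letters TNAAGTG, a core motif of the NK2 homeodomain family, on either strand.
Stx11: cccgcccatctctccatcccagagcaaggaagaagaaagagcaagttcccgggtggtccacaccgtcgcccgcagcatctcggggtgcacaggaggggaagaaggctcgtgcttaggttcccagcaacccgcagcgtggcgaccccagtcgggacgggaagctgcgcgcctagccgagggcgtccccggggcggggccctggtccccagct
Stx1a: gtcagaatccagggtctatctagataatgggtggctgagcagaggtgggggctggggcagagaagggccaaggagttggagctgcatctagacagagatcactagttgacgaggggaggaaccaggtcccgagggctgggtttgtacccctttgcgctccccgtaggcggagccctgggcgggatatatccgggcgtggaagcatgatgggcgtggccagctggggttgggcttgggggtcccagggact
Neither stretch held the motif. Among windows of 250 bases before the start, 5 of 65 for 53 of the 70 genes held it (7.69%), at Stx5a, Stxbp2, Syt11, Rph3al and Cplx3, against 10.1% of 32851 windows of all genes. A match is a description of letters, and its absence from this window says nothing of binding elsewhere.

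Stx11 encodes a syntaxin without a membrane anchor of its own. The controls held 18.2, 70.8, 36.6 and 29.6 normalized counts of it, and the KO libraries 196, 272 and 194. Every KO library lay above every control, by more than the spread within either group. Means were 38.8 ± 22.6 for controls (SD, n = 4) and 220.4 ± 44.3 for KO libraries (SD, n = 3). The log2 fold change was 2.51 (SE 0.46), a 5.71-fold rise with a 95% interval of 3.07 to 10.6, and the adjusted p was 4.91e-06 in DESeq2 and 0.0418 in edgeR. The rise passed in all 7 DESeq2 fits that each left out 1 library, with a log2 fold change between 2.28 and 2.97. Without control 4 it was 2.40, with an adjusted p of 1.19e-06.

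Stx11 was a scarce syntaxin in both groups. Per kilobase of exon, its level was 9.22 ± 5.38 normalized counts in controls (SD, n = 4) and 52.4 ± 10.5 in KO libraries (SD, n = 3), against 463 ± 30 for Stx1a in controls. The libraries held 16 to 60 raw counts of Stx11 in controls and 200 to 263 in KO samples. In bulk samples, more RNA per cell and more cells that carry a transcript cannot be told apart. Because Stx11 is known from leukocytes, the leukocyte markers are given beside it. Ptprc, the pan-leukocyte gene, had 0, 0, 20.9 and 2.89 normalized counts in the controls, and the KO libraries had 1.96, 10.3 and 31.1. Cd52 was at 0 in all 4 controls and in KO 1, and at 4.13 and 2.96 in the other two KO libraries. Lyz2, a myeloid gene, had 0, 9.44, 28.8 and 0 in controls and 11.7, 14.5 and 14.8 in KO libraries, which overlapped. Cd68, a macrophage gene, had 46.5, 42.5, 47.1 and 105 in controls and 68.4, 60.9 and 128 in KO libraries, each KO value lying above controls 1 to 3. Its log2 fold change was 0.51 (adjusted p 0.905 by DESeq2) and, without control 4, 0.93 (0.315). The sum of the 5 leukocyte markers ran from 859.8 to 1401 in controls and from 592 to 745 in KO libraries, and C1qa, a macrophage gene and the only one of them that passed in DESeq2, supplied most of it and fell (log2 fold change -0.82, adjusted p 0.0113, and 0.14 in edgeR). Per kilobase of exon, Ptprc reached at most 1.7 normalized counts, in the unnumbered KO library. The part of leukocytes in the Stx11 result was not tested. Endothelial markers summed to 369 to 556 in controls and 357 to 921 in KO libraries, and 0 of 5 passed in DESeq2.

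Stx1a encodes the syntaxin that pairs with SNAP25 at the plasma membrane of endocrine cells and neurons. The controls held 1239, 1204, 1154 and 1343 normalized counts of it, and the KO libraries 1615, 1683 and 1496. All 3 KO libraries lay above all 4 controls, with means of 1598 ± 94.6 (SD, n = 3) and 1235 ± 80.1 (SD, n = 4). The log2 fold change was 0.37 (SE 0.12), a 1.29-fold rise with a 95% interval of 1.1 to 1.52, and the adjusted p of 0.0415 in DESeq2 lay close to the threshold. In edgeR its adjusted p was 0.151. Of the 7 DESeq2 fits that each left out 1 library, only the one without control 4 kept it past the threshold (0.0331). In the others the adjusted p was 0.0925 to 0.365, with a log2 fold change between 0.33 and 0.41. A fit of 6 libraries with a block for the numbers that the count columns of both groups share gave 0.34, with an adjusted p of 0.192.

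Markers of other islet cells moved between the groups as well, by DESeq2. In edgeR only Ppy of the markers named as rising here had an adjusted p under 0.05 (0.0474), and the others had 0.0536 to 0.277. Summed gamma cell markers ran from 308979 to 579769 in controls and from 888962 to 1136051 in KO libraries, and 2 of the 3 rose (Ppy and Pyy). Of 8 beta cell markers 2 rose (Iapp and Glp1r), and their sum overlapped between the groups, at 336604 to 687807 and 530300 to 974500. Of 5 delta cell markers 2 rose (Rbp4 and Ffar4), with sums of 197155 to 400129 and 356961 to 633738. Of 5 neuronal markers Nefm alone rose, and it carried the sum of 6075 to 10504 in controls and 11979 to 20534 in KO libraries, although 19.2% of its exon length is shared with genes on the opposite strand. Of 5 duct markers Spp1 alone rose (1.57-fold). Sox9 (94.1 to 586 in controls, 682 to 1039 in KO) and Cftr (2.61 to 37.7 and 60.6 to 72.3) did not overlap either, at 3.22-fold and 3.55-fold with adjusted p-values of 0.169 and 0.166 in DESeq2. Their summed level, mostly Krt7, was 8350 to 12381 in controls and 11901 to 12455 in KO libraries. Of 6 acinar markers 0 passed. None of the gamma, beta, delta, neuronal and duct markers was at 0 in any library. The part of these cell types in the values of Stx11 and Stx1a was not tested.

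**Figure D1:**
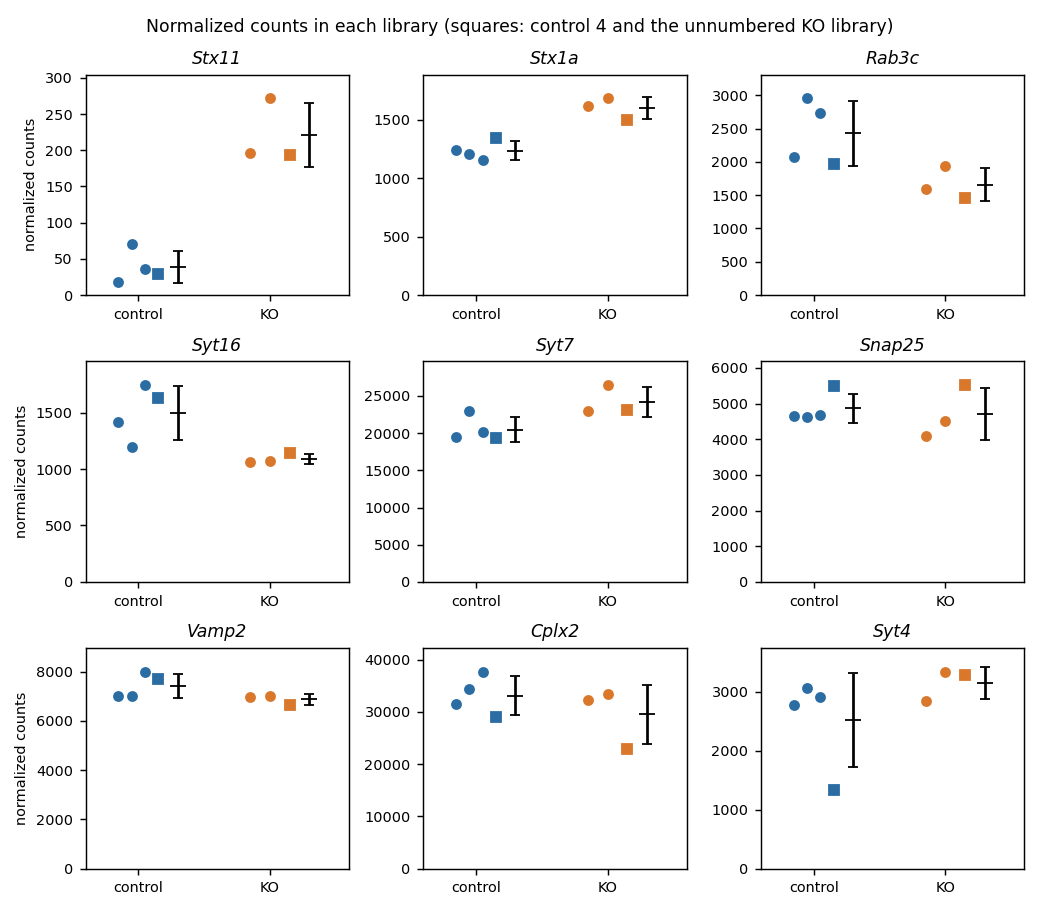
Normalized counts (vertical axes, from 0) of 9 exocytosis genes in each of 4 control and 3 KO libraries. Squares are control 4 and the unnumbered KO library, and the black marks give the mean and SD. Stx11 (18.2 to 70.8 against 194 to 272) and Stx1a do not overlap between groups, Rab3c and Syt16 lie lower in KO libraries, and Syt4 is low in control 4 (1340).

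Of the remaining 12 syntaxins with an adjusted p, none passed in DESeq2 or in edgeR, and Stx6 alone had an unadjusted p under 0.05 (0.027 in DESeq2, 0.0247 in edgeR). Among all genes tested, 4.51% passed in DESeq2 and 1.05% in edgeR. An unadjusted p under 0.05 was found for 12.2% and 10.5%, so these counts lie near the background. Stx6, a syntaxin of the trans-Golgi network, had 2684, 2733, 3144 and 2975 normalized counts in controls and 2481, 2552 and 2274 in KO libraries. The groups did not overlap, but the log2 fold change of -0.24 (SE 0.11) had an adjusted p of 0.282. The plasma membrane syntaxins Stx3 (1536 to 1959 in controls, 1338 to 1902 in KO) and Stx4a (1682 to 2143 and 1692 to 1865) overlapped between groups, as did Stx2 (576 to 715 and 515 to 661). The same held for the syntaxins of Golgi, ER and endosomes, namely Stx5a, Stx7, Stx8, Stx12, Stx16, Stx17 and Stx18, whose log2 fold changes lay between -0.17 and 0.17. Stx18 shares 32.3% of its exon length with genes on the opposite strand, so its counts are uncertain. Stx19 had 113 counts in control 4, 2 in control 2 and 0 in the other 5 libraries, and DESeq2 set it aside as a count outlier.

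Outside the syntaxins, 0 of 47 genes passed in DESeq2 and 0 of 50 in edgeR, with 4 and 3 genes at an unadjusted p under 0.05. Over all genes tested, 4.51% and 1.05% passed, and 12.2% and 10.5% had such an unadjusted p. Snap25, the SNAP protein of regulated secretion, had normalized counts of 4664, 4629, 4678 and 5489 in controls and 4087, 4508 and 5520 in KO libraries, with the unnumbered KO library and control 4 at the top of their groups. Its log2 fold change was -0.05 (95% interval -0.31 to 0.22, adjusted p 0.998), and 0.02 without control 4. Vamp2, the granule SNARE, had 7018, 6997, 7986 and 7679 in controls and 6970, 7012 and 6631 in KO libraries. The groups overlapped, with a log2 fold change of -0.11 (95% interval -0.30 to 0.07, adjusted p 0.834). Snap23, the widely expressed relative of Snap25, lay at 1049 to 1122 in controls and 1130 to 1265 in KO libraries without overlap, yet its log2 fold change was 0.14 (95% interval -0.09 to 0.36). Vamp3, which serves recycling endosomes, did not overlap either, at 1428 to 1541 and 1336 to 1388, with a log2 fold change of -0.10 (95% interval -0.31 to 0.10). Vamp1, Vamp4, Vamp7, Vamp8, Snap29 and Snap47 overlapped between groups. Snap29 was low in control 4 (926, against 1498 to 1638 in the other controls). Snap47 shares 11.6% of its exon length with genes on the opposite strand.

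Of the syntaxin-binding proteins, Stxbp2 (2296 to 2619 and 2066 to 2537) and Stxbp3 (1403 to 1577 and 1474 to 1619) overlapped between groups. Tomosyn (Stxbp5), which competes with VAMP for the syntaxin, and Stxbp4 also overlapped between groups. Stxbp6, which encodes amisyn, another such competitor, lay at 778 to 1195 in controls and 1200 to 1383 in KO libraries, without overlap but with an adjusted p of 0.591 (log2 fold change 0.29, SE 0.18). Of the complexins, Cplx2 was the abundant form, with 28943 to 37664 normalized counts in controls and 22990 to 33425 in KO libraries. Cplx1 varied widely, from 27.2 to 241 in controls and from 3.91 to 209 in KO libraries, so its 95% interval of -2.83 to 2.10 on the log2 scale leaves its change undetermined. Cplx3 and Cplx4, known mainly from the retina, had at most 12 counts in any library.

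**Figure D2:**
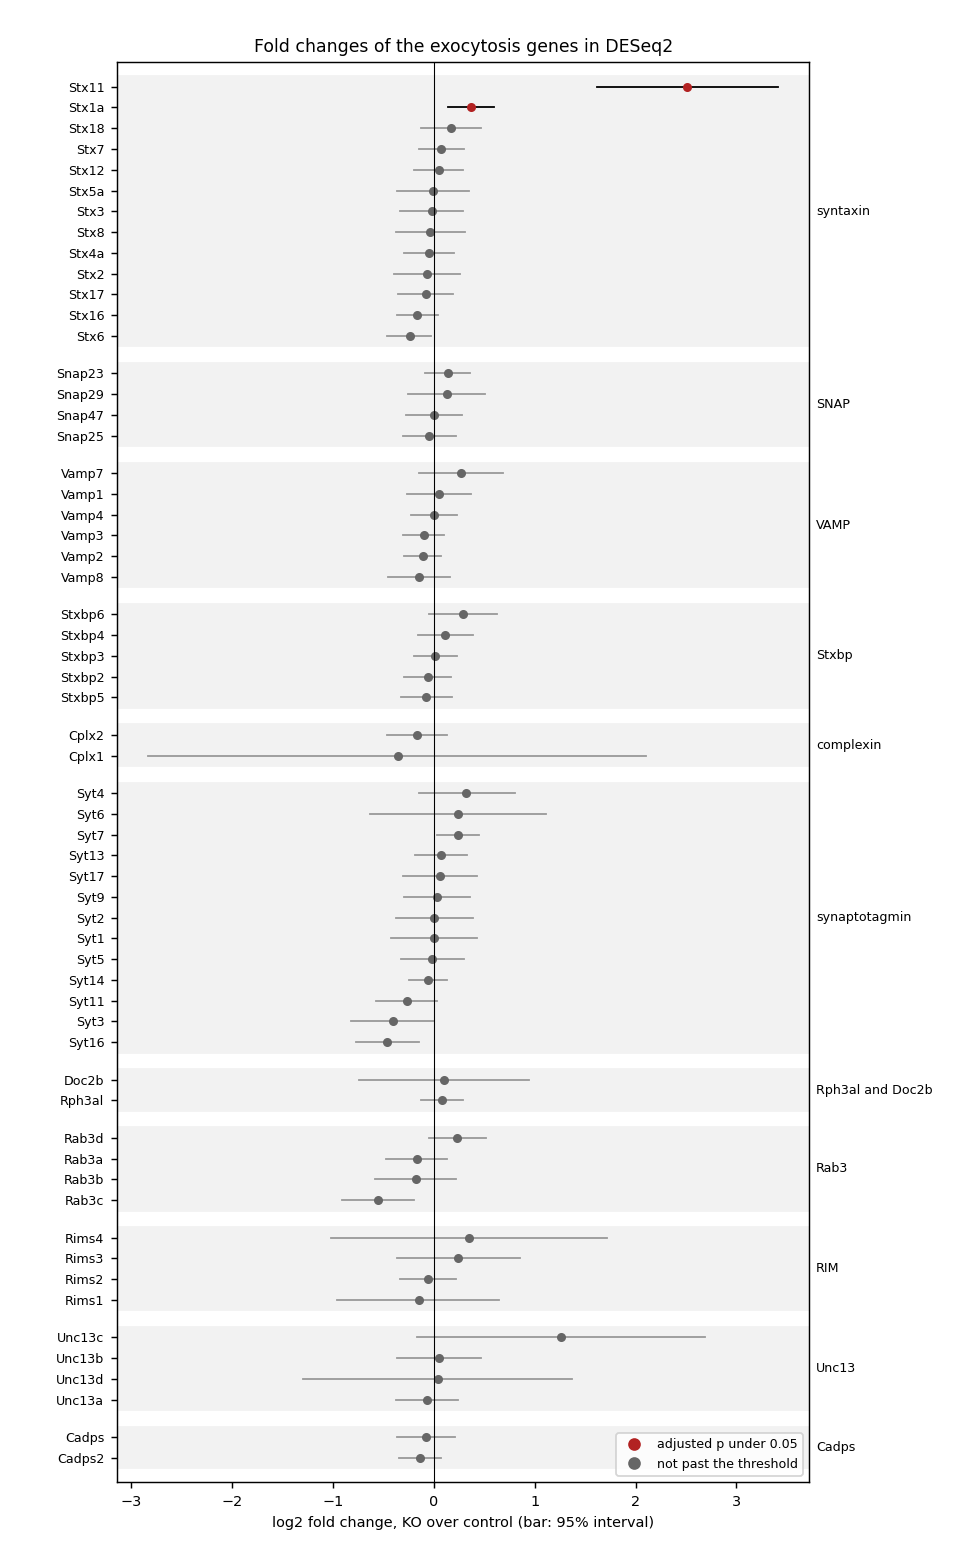
Log2 fold change of KO over control (horizontal axis) for 59 of the 61 exocytosis genes with an adjusted p-value, by family, with 95% intervals as bars. Red points passed in DESeq2 (Stx11 at 2.51 and Stx1a at 0.37), and most other intervals span 0.

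Among the synaptotagmins, 0 of 13 genes with an adjusted p passed in DESeq2 and 0 of 15 in edgeR. An unadjusted p under 0.05 was found for 3 and 2 of them. The background is 4.51% and 1.05% for calls, and 12.2% and 10.5% for the unadjusted p. Syt7, the high-affinity calcium sensor linked to glucagon release, had 19511, 22944, 20107 and 19316 normalized counts in controls and 22939, 26472 and 23160 in KO libraries. Control 2 and KO 1 met at the border of the groups. The log2 fold change was 0.24 (SE 0.11, 95% interval 0.03 to 0.45), and the adjusted p was 0.256, and 0.472 in edgeR. With library totals as the scaling, which raised the median of all genes from 0.01 to 0.11, it was 0.34 with an adjusted p of 0.0148. With a block for the numbers 1, 2 and 4 that the count columns of both groups share (6 libraries), it was 0.23 with an adjusted p of 0.0164.

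Syt16, an atypical synaptotagmin that lacks calcium-binding residues, had 1416, 1195, 1745 and 1630 normalized counts in controls and 1062, 1068 and 1142 in KO libraries. All KO libraries lay below all controls, with a log2 fold change of -0.46 (SE 0.16) and an adjusted p of 0.0772. It passed without control 2, its lowest control (0.00762), and in 1 other of the 17 alternative fits. Syt3 lay at 290.4 to 397 in controls and 224 to 282 in KO libraries, also without overlap, with an adjusted p of 0.398. Syt11, another form that does not bind calcium, ran from 2391 to 3298 and from 2028 to 2624, with an adjusted p of 0.523. In Syt4, 14.5% of the exon length is shared with genes on the opposite strand. It had 2782, 3071 and 2911 normalized counts in controls 1 to 3, 1340 in control 4, and 2843, 3340 and 3289 in KO libraries. Its log2 fold change was 0.32 with all libraries and 0.11 without control 4, with adjusted p-values of 0.767 and 0.791. Syt1 and Syt2, the fast sensors of synapses, were present at 676 to 1271 and 591 to 952 in controls, and each had a log2 fold change of 0.00 to 2 decimals. The endocrine sensors Syt5 (1935 to 2748 in controls, 1962 to 2635 in KO) and Syt9 (2198 to 2612 and 1910 to 3031) overlapped between groups. The remaining synaptotagmins with an adjusted p, Syt6, Syt13, Syt14 and Syt17, overlapped as well. Syt8 had 1 count in all, Syt10 at most 10 in a library, Syt12 at most 28 and Syt15 at most 24.

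Rab3 proteins sit on granules in their GTP form and recruit effectors. Rab3c had normalized counts of 2066, 2956, 2727 and 1972 in controls and 1585, 1932 and 1455 in KO libraries. The highest KO library lay just under the lowest control. The log2 fold change was -0.55 (SE 0.18, 95% interval -0.91 to -0.20), with adjusted p-values of 0.0521 (DESeq2) and 0.205 (edgeR). Without control 4 it was -0.64 with an adjusted p of 0.00307, on the other side of the threshold. It also passed without control 1 (0.0458) and without KO 2 (0.0264), and with the block for the column numbers (log2 fold change -0.48, adjusted p 0.00265). The other 3 genes of the family overlapped between groups: Rab3a (2040 to 2750 in controls, 1764 to 2335 in KO), Rab3b (1028 to 1632 and 985 to 1498) and Rab3d (3183 to 3697 and 3252 to 4557). Rab3d, the form of secretory cells, had a log2 fold change of 0.23 with an adjusted p of 0.602, and it passed without the unnumbered KO library, which held its lowest KO value. The Rab effector gene Rph3al, which encodes the granule protein Noc2, overlapped too, at 8013 to 9769 against 8806 to 10029. So did Doc2b, which encodes a calcium sensor, at 107 to 341 against 147 to 337.

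Of the priming and tethering genes, 0 of 10 passed in DESeq2 or edgeR, and 0 had an unadjusted p under 0.05 in either. With 4.51% and 1.05% of all genes called and 12.2% and 10.5% at such a p, 0 of 10 lies near the background. RIM2 (Rims2) was the main RIM gene, with 8075 to 11659 normalized counts in controls and 8507 to 10341 in KO libraries, while Rims1 stayed at 93.2 to 123 and 57.8 to 157. Rims3 (806 to 2141 and 1177 to 1801), Rims4 (17.3 to 57.5 and 13.3 to 73.3) and Unc13d (19.6 to 99.1 and 32 to 82.1) overlapped between groups. Munc13-1 (Unc13a) lay at 7637 to 11441 and 7949 to 9851, and Unc13b at 3667 to 6519 and 3898 to 6186. In Rims2, Unc13a and Unc13b the highest control was control 4 and the highest KO library was the unnumbered one. Unc13c had the second largest estimate of all 61 genes, a log2 fold change of 1.26, but its 5.78 to 21.2 normalized counts in controls and 20.7 to 43.4 in KO libraries overlapped, and the 95% interval ran from -0.17 to 2.69. CAPS1 (Cadps), the granule priming factor, lay at 11501 to 17284 and 11900 to 14483, and CAPS2 (Cadps2) at 1567 to 1678 and 1402 to 1582.

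Levels were compared between genes per kilobase of exon, in control libraries. Syt13, an atypical synaptotagmin of endocrine cells, led with 7914 ± 1143 normalized counts per kilobase (SD, n = 4), followed by Cplx2 at 6725 ± 759. Their ranges between control libraries overlapped (6577 to 9356 and 5873 to 7643), but Syt13 lay above Cplx2 within each control library. Then came Syt7 at 2734 ± 225, Rph3al at 2304 ± 191 and Vamp2 at 1948 ± 129. These 5 genes made up 48% of the summed level per kilobase of the 70. The leading syntaxin was Stx16 at 1130 ± 81, a Golgi form, and the leading SNAP gene was Snap47 at 1312 ± 178, above Snap25 at 716 ± 61.3. Of the plasma membrane syntaxins, Stx4a (779 ± 86.9) lay above Stx1a (463 ± 30). Other leaders of their families were Rab3a (1082 ± 132), Cadps (956 ± 159), Rims2 (925 ± 147) and Unc13a (716 ± 132).

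The order depends on the length used. With the mean length of the protein-coding transcripts in place of all exons together, chosen after the data were seen, Syt7 had 9004 per kilobase and took the first place before Syt13 (7914) and Cplx2 (6725). Snap25 (3109) then lay above Snap47 (2253), and Stx5a (3388) above Stx16 (1179). Under both lengths Syt13, Cplx2, Syt7, Rph3al and Vamp2 filled the first 5 places. Within families the spread between genes was wide. Complexins ran from Cplx2 down to Cplx4 with 0 counts in all 4 controls, which allows at most 3 independently counted reads a library, or 2.17 to 3.92 normalized counts, for counting error only and more where counts are not independent.

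**Figure D3:**
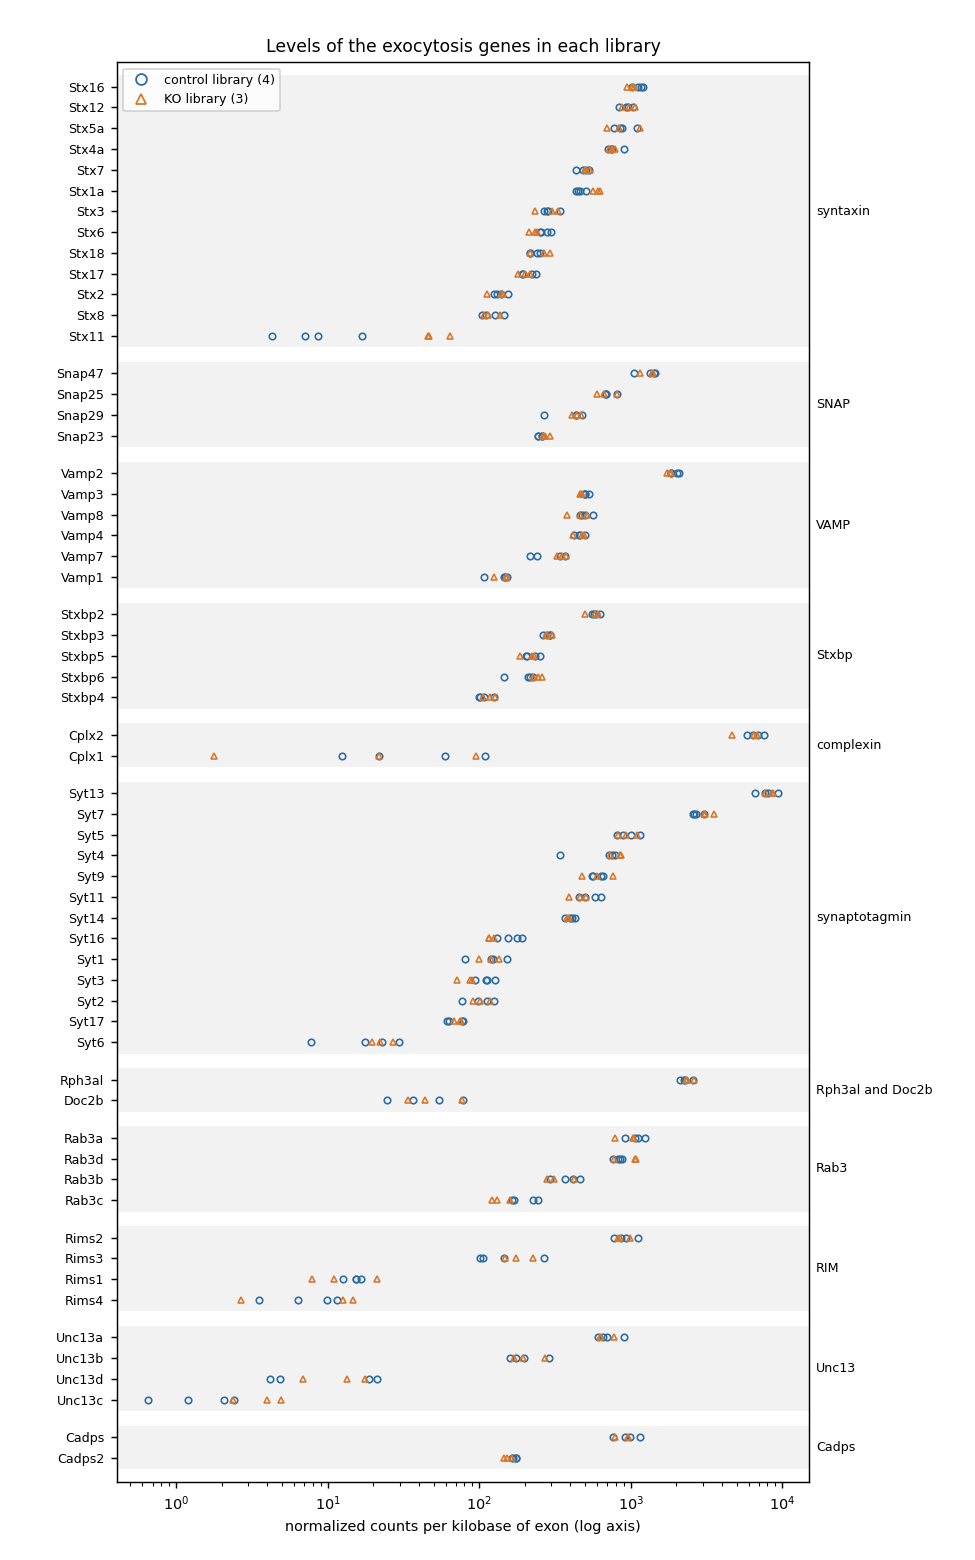
Normalized counts per kilobase of exon (horizontal log axis) for 59 of the 61 exocytosis genes with an adjusted p-value in each control library (circles) and KO library (triangles), by family. Syt13 and Cplx2 lie highest, and the symbols of the groups lie on each other for most genes, while those of Stx11 stand apart.

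The size of the differences was small across these genes. The median log2 fold change of the 61 was 0.00 (quartiles -0.10 and 0.10), against 0.01 (-0.15 and 0.20) for all 17571 genes. A change under 0.3 on the log2 scale in either direction was found for 52 of 61 genes (85.2%), against 66.4% of all genes. The 95% interval lay wholly within a 1.5-fold change in either direction for 44 of 61 genes (72.1%), against 44.7% of all genes. It lay within a 2-fold change for 55 (90.2%), against 63%. Abundance differed between the sets, however, and among genes with a mean of at least 500 normalized counts the shares lay closer together. There the interval lay within 1.5-fold for 43 of 50 exocytosis genes (86%) and for 79% of 8888 genes. Within 2-fold the shares were 100% and 94%. The median log2 fold change without its sign was 0.08 and 0.11 in these abundant sets, against 0.10 and 0.17 without the minimum. The share under 0.3 was not computed for them. For 9 of the 61 genes (14.8%) the ranges of KO and control libraries lay apart, against a background of 12% of all genes tested. Of the 61 genes, 7 had an unadjusted p under 0.05 (11.5%), against a background of 12.2%.

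**Figure D4:**
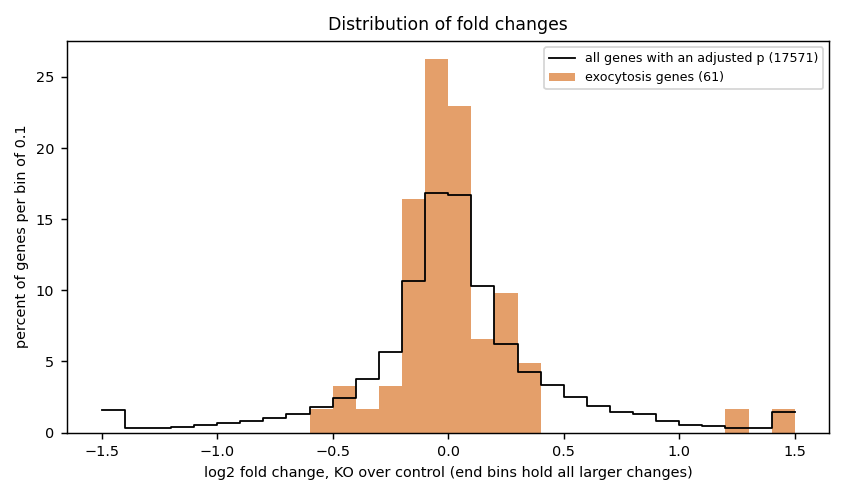
Percent of genes (vertical axis) in bins of 0.1 of the log2 fold change of KO over control (horizontal axis) for the 61 exocytosis genes (bars) and for all 17571 genes with an adjusted p-value (line). The bars gather near 0, with 85.2% of the 61 genes within 0.3 of it, against 66.4% of all genes. The sets are not matched for abundance. Stx11 lies in the highest bin.

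A list of 81 further exocytosis genes that the symbol rule does not cover held 3 calls among 79 genes tested in DESeq2 (3.8%, against the background of 4.51%), 2 higher and 1 lower. At an unadjusted p under 0.05 were 17 of the 79 (21.5%, against 12.2% of all genes), 9 higher and 8 lower. In edgeR 1 of 79 passed (1.27%, against 1.05%). Exoc6, a subunit of the exocyst complex that tethers vesicles to the plasma membrane, fell. Its normalized counts were 2470, 2529, 2722 and 2404 in controls and 1646, 1643 and 1594 in KO libraries. No control came near the KO range, and the log2 fold change was -0.64 (SE 0.10), with adjusted p-values of 5.6e-08 (DESeq2) and 0.0136 (edgeR). It passed in all 17 alternative fits.

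Stxbp5l, the tomosyn relative of Stxbp5, rose from 3098, 3336, 2073 and 3426 in controls to 4739, 4666 and 6776 in KO libraries. The groups did not overlap, and the difference was 0.85 on the log2 scale (SE 0.20, adjusted p 0.000974 by DESeq2 and 0.092 by edgeR). It passed in all 7 DESeq2 fits that left out 1 library. Snapin, a SNAP25-binding protein, had 573, 568, 603 and 501 in controls and 733, 793 and 799 in KO libraries. The groups did not overlap, and its rise was 0.47 on the log2 scale (SE 0.14, adjusted p 0.0294 by DESeq2 and 0.136 by edgeR). It passed in none of the 7 DESeq2 fits that left out 1 library, where the adjusted p was 0.0846 to 0.257, nor with the block for the column numbers (0.0984), and 15.5% of its exon length is shared with genes on the opposite strand. Without control 4 the list held 5 calls of 79 (6.33%, against 5.23%), with Rab27b, Pclo and Esyt1 in place of Snapin (these 3 are named after their values were seen).

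**Figure D5:**
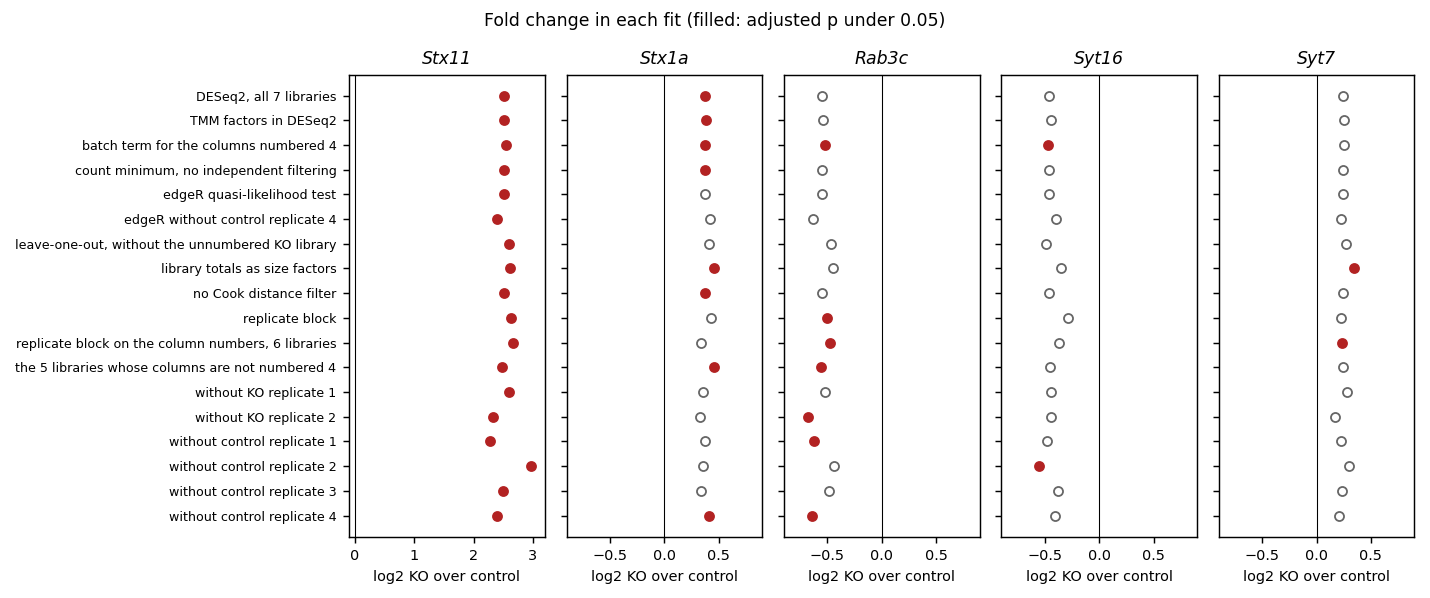
Log2 fold change of KO over control (horizontal axes) for 5 exocytosis genes in DESeq2 with all 7 libraries and in the 17 alternative fits (rows). Filled points have an adjusted p under 0.05: Stx11 passes in every fit shown, Stx1a, Rab3c, Syt16 and Syt7 in some.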

How the data were processed

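RNA of sorted alpha cells was sequenced after ribosomal RNA depletion in 4 control and 3 KO samples. The deposited table holds raw read counts per gene for 55536 genes, made by the authors with FastQC, STAR and featureCounts on mm10, per the submitters' processing notes; versions and the strand setting are not given in the sources used here. KO columns were matched to samples by name, and 1 KO column could be tied only to its group. Gene positions and exon lengths came from GENCODE M21, and RefSeq promoters matched 53 of the 70 genes.

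Counts were fitted with DESeq2 1.42.0 (Wald test, no covariate, as the series' design text states) over the 35178 genes with a count, with Benjamini-Hochberg adjustment, a threshold of 0.05 and independent filtering, which left 17571 genes with an adjusted p. The quasi-likelihood test of edgeR 4.0.16 was run beside it. Normalized counts are counts divided by size factors, and 95% intervals are the log2 fold change ± 1.96 SE. The code was tested on simulated data, where DESeq2 called more unchanged genes than edgeR did. Alternatives were other scalings, filters and tests, a term for the columns numbered 4, a replicate block and leaving out each library. Named genes were the markers Snap25, Syt7 and Vamp2, called genes, the 10 with the smallest p, each family's most abundant gene, a textbook core list of 51 genes, and called genes of the further list. Genes outside that rule, such as Syt6, Syt17 and Stx17, are given only to account for every gene, and 2 of the 70 genes are counted but not reported here. The genes and lists were chosen with earlier results of these data known.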

Additional observations from a re-analysis of the deposited data

Results flagged for a closer look

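Of 64 exocytosis genes examined for a control library far from the other 3, 2 stood out, and chance alone gives about 1 in 20, or 3.2 of 64. Both were in control 4. Snap25 had 5489 normalized counts there, against 4629 to 4678 in the other controls. Syt4 had 1340 there, against 2782 to 3071 in the others.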

How the results depend on the processing

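Over all genes, DESeq2 called 792. The count was 1379 with a term for the columns numbered 4, 203 in edgeR, 249 in edgeR without control 4 and 430 to 907 when 1 library was left out, lowest without KO 1. For the exocytosis genes, 2 calls became 4 with that term (Rab3c and Syt16 added), 1 in edgeR with or without control 4, 4 on the 5 libraries whose columns are not numbered 4 (Rab3c and Rab3d added) and 1 to 3 when 1 library was left out, with 1 without KO 1 or without control 3. For the further list, 3 calls became 9, 1, 1 and 2 to 5 under the term, edgeR, edgeR without control 4 and leaving out 1 library, with 5 without control 4. The cause was not tested. Stx11 and Exoc6 passed in all 17 alternatives, Stx1a in 7, Rab3c in 7 and Syt7 in 2. Snap25 was never past the threshold and changed sign, to 0.06 with library totals, 0.02 without control 4 in both tools, and -0.18 to 0.04 when 1 library was left out. Library totals as scaling raised the median log2 fold change of all genes from 0.01 to 0.11 and gave 684 higher and 297 lower calls, against 394 and 398. The fits of edgeR without control 4, of the 5 libraries and of the 6 libraries in the next paragraph, and the transcript length, were chosen after seeing the data.

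Sample titles of both groups share the numbers 1, 2 and 3 and the count columns share 1, 2 and 4, and no label says that a number marks a shared litter or day. Deviations from the group means correlated at 0.231 for the columns numbered 1, at 0.301 for those numbered 2 and at 0.482 for those numbered 4, but KO 2 correlated more with control 3 (0.407). Control 3 with KO 1, whose numbers differ, was at 0.114. Control 4 and the unnumbered KO library, the pair at 0.482, also held the most counts (72456557 and 65267762). Whether the column numbers pair the libraries cannot be told from these values, and the KO column numbered 4 matches no title. With the replicate block, the 4 libraries whose number matches a title and a column in both groups gave 578 calls, among them 2 exocytosis genes (Stx11 and Rab3c) and 2 of the further list. All 6 same-numbered columns with the block gave 1008, among them 3 exocytosis genes (Stx11, Rab3c and Syt7, without Stx1a) and 3 of the further list (Exoc6, Stxbp5l and Pclo). The number of libraries and the low counts of genes such as Cplx1 and Unc13c limit the precision.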
